A study of Homo sapiens with 8 samples.

Results

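The enzymes that carry glucose carbon through glycolysis, the pyruvate dehydrogenase step, the tricarboxylic acid (TCA) cycle and the pentose phosphate pathway were followed in WT and XRN1-null HEK293T cells. The set was drawn by gene symbol, by a rule that uses no measured value, and all 43 of its 43 genes were among the 10105 genes of the count table. It holds 17 genes of glycolysis, 5 subunits of the pyruvate dehydrogenase complex, 12 genes of the TCA cycle, 3 cytosolic or anaplerotic enzymes (IDH1, MDH1 and PC) and 6 genes of the pentose phosphate pathway. HEK293T is a widely used human cell line of embryonic kidney origin. XRN1-null cells are a line of the same origin in which the gene for XRN1, the major cytoplasmic nuclease that degrades mRNA from its 5′ end, was disrupted with CRISPR/Cas9 and a single guide RNA. Cells of both genotypes received no other treatment and were grown for 24 h on 15 cm dishes before harvest. mRNA levels were measured by RNA-Seq and ribosome-protected fragments (RPF, the footprints that ribosomes leave on the mRNA they translate) by Ribo-Seq, with 2 biological replicates per genotype and assay. The comparison of genotypes asks what changes in the transcriptome and in translation when XRN1 is lost, and since it rests on 1 XRN1-null line, the line and the mutation cannot be told apart.

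Glycolysis breaks glucose down to pyruvate in the cytosol and yields a small amount of ATP. Lactate dehydrogenase then reduces pyruvate to lactate, or the mitochondrial pyruvate dehydrogenase complex turns it into acetyl-CoA, which the TCA cycle oxidizes to feed the respiratory chain. The pentose phosphate pathway branches off at glucose 6-phosphate and supplies NADPH and ribose 5-phosphate. Several of these enzymes exist as isozymes from different genes, and glycolytic enzymes are among the most abundant proteins of proliferating cells.

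Values are CPM, the counts of a gene per 1 M counts of its library after scaling with TMM factors within each assay. RNA-Seq libraries held 33757487 to 38145433 counts and Ribo-Seq libraries 1921641 to 4399542 counts, so footprint values carry the larger counting error. Every member had at least 10 counts in every library, and the lowest member count was 25. As a check of the labels, XRN1 footprints were 34.4 and 49.8 CPM in WT against 22.6 and 18.4 CPM in XRN1-null cells, whereas XRN1 mRNA was 33.5 and 33.0 CPM in WT against 282 and 253 CPM in XRN1-null cells. Of the markers looked for, the HEK293 neurofilament genes NEFL and NEFM were present, and PAX2, LHX1, PTPRC, ALB, MYOD1 and EPCAM were not among the genes analysed here. COL1A1, a fibroblast collagen gene, moved with genotype (13.9 and 15.4 CPM of mRNA in WT against 36.8 and 37.3 CPM in XRN1-null), and NEFM mRNA was lower there without overlap (124 and 166 CPM in WT against 93.6 and 99.7 CPM). NEFL footprints were higher without overlap (47.4 and 58.8 CPM in WT against 79.2 and 85.2 CPM). The part of these genes in the results was not tested. In bulk libraries, fewer cells of a kind and less RNA per cell cannot be told apart.

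The 7 enzymes whose mRNA differed between genotypes are shown here by the bases around their annotated start codon, the place where the footprints of a coding sequence begin. The sequences are from the GRCh37 genome at the start codon of the GENCODE reference transcript, in the sense direction, with the start codon in capitals. A single transcript stands for each gene, and other transcripts can start elsewhere. That of ALDOA has 1254 coding nt, against 1092 for the aldolase gene ALDOC. Whether the footprints begin at the start codons shown was not tested.
DLST: tccgccgtgATGc
PC: acactaaggATGc
ALDOA: ggtgaccccATGg
PGAM1: cccgccgccATGg
IDH2: cagcttgggATGg
PGLS: gccctcgccATGg
RPIA: ggcgtcgggATGc
The base 3 positions before the A of the start codon and the base at position 4 (counted from that A) are the positions best known to affect start codon choice. A purine stood at position -3 in 39 of the 42 members with such a sequence (92.9%) and in 87.8% of 9227 genes of the table. A G stood at position 4 in 21 of the 42 members (50%) and in 54.9% of the genes of the table.

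Few of these enzymes were called in mRNA. Each gene was tested across the whole table with the quasi-likelihood test of edgeR, and a gene was called where its FDR, the Benjamini-Hochberg adjusted p over 10105 genes, was below 0.005, the threshold of the study. The study's own edgeR analysis called more genes than this test, in mRNA and in Ribo-Seq. A gene that did not pass here can thus have passed there. Calls of edgeR are those with TMM factors and without a block for the replicate number, except where another setting is named. The mRNA of DLST and PC rose in XRN1-null cells, which is 2 of 43 members (4.65%) where 22.9% of all genes were called higher. The mRNA of ALDOA, PGAM1, IDH2, PGLS and RPIA fell, which is 5 of 43 members (11.6%) where 23.2% of all genes were called lower. The median log2 fold change (XRN1-null over WT) was -0.05 over the members and -0.01 over all genes, and 39 of the 43 members (90.7%) against 68% of all genes lay within 0.5 of 0 on the log2 scale. The median standard error was 0.082 for the members, 0.0996 for the glycolytic genes among them and 0.076 for all genes. DESeq2 called HK1, PFKM and SUCLA2 higher and MDH2 lower in addition to these 7.

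**Figure D1:**
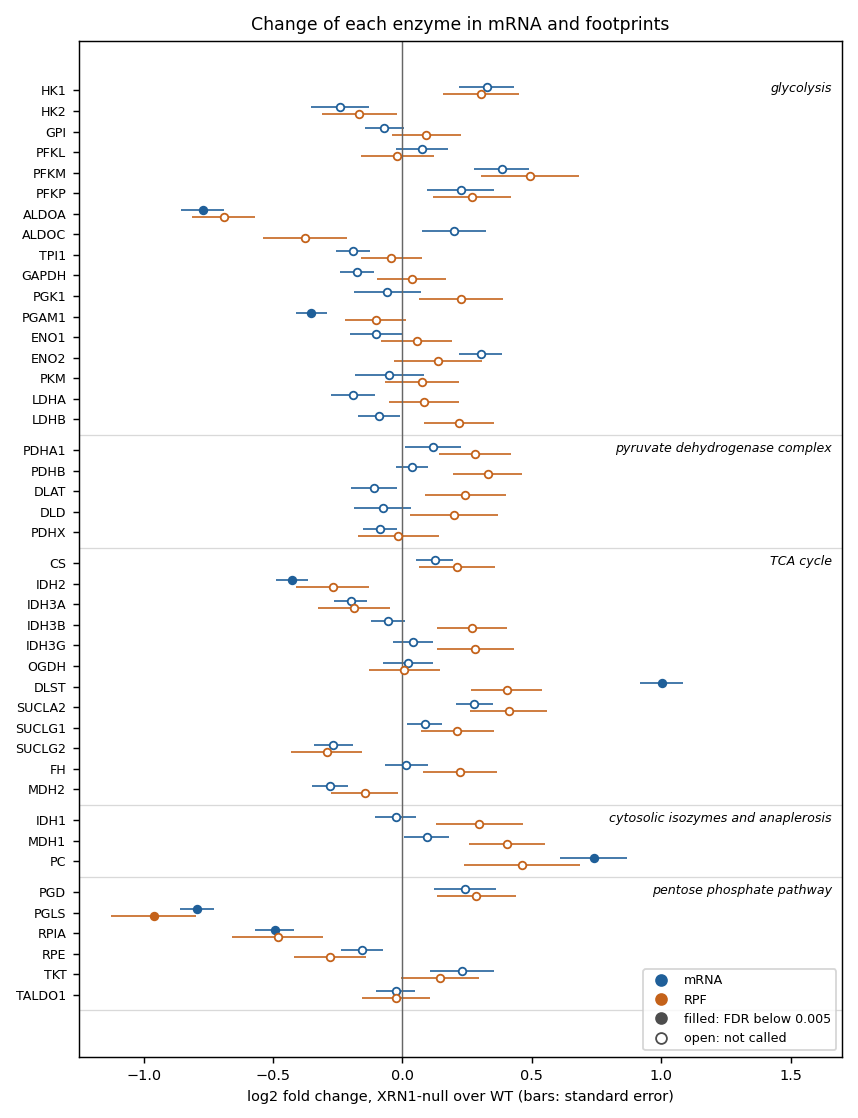
Log2 fold change of XRN1-null over WT cells for each of the 43 enzymes (rows, grouped by pathway), for mRNA (blue) and RPF (orange), with bars of 1 standard error. Filled points passed an FDR below 0.005 in edgeR's quasi-likelihood test; most points lie near 0, DLST and PC stand to the right in mRNA, and ALDOA and PGLS stand to the left in both measures.

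Among the 17 glycolytic genes, 2 fell in mRNA (11.8%, where 23.2% of all genes were called lower). With edgeR without a block none was called higher, where 22.9% of all genes were. ALDOA encodes the main aldolase, which splits fructose 1,6-bisphosphate into its trioses, and lies at chr16:30075485-30081778 (GRCh37, plus strand). Its mRNA was 1021 and 1191 CPM in the WT pair against 638 and 658 CPM in the XRN1-null pair. Both XRN1-null values lay well below both WT values. The log2 fold change was -0.77 ± 0.08 (SE), a level 1.71-fold lower in XRN1-null cells (edgeR quasi-likelihood test, FDR = 0.000156). ALDOA footprints followed, with 1460 and 1587 CPM in WT against 922 and 965 CPM in XRN1-null cells. The groups did not overlap, but the log2 fold change of -0.69 ± 0.12 (SE) narrowly missed the threshold with edgeR (FDR = 0.00521). DESeq2 called it (adjusted p = 0.000793), as did 6 of the 9 alternative analyses in all, over which the adjusted p ranged from 1.69e-15 to 0.13. The annotation places 2 uncharacterized genes over ALDOA, 1 on each strand, and whether reads were counted by strand is not given in the sources used here.

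PGAM1, the phosphoglycerate mutase of most tissues, at chr10:99185948-99193201 (plus strand), was the other glycolytic gene called. Its mRNA was 1048 and 1101 CPM in WT against 845 and 839 CPM in XRN1-null cells. The drop was modest and the groups did not overlap, with a log2 fold change of -0.35 ± 0.06 (SE, edgeR FDR = 0.00141). The call was lost without either XRN1-null library (edgeR FDR = 0.0496 and 0.0546, with a range of 1.39e-10 to 0.0546 over the alternatives). PGAM1 footprints, at 1219 and 1208 CPM in WT against 1150 and 1109 CPM in XRN1-null cells, gave a log2 fold change of -0.10 ± 0.12 (SE) that did not pass the test (edgeR FDR = 0.569).

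The other 15 glycolytic mRNAs did not pass with edgeR without a block, while DESeq2 called HK1 and PFKM higher and edgeR with the replicate block called HK1, PFKM and ENO2 higher. These span the pathway from hexokinase (HK1, HK2), glucose 6-phosphate isomerase (GPI) and phosphofructokinase (PFKL, PFKM, PFKP), the main point of control, through ALDOC, triose phosphate isomerase (TPI1), GAPDH, phosphoglycerate kinase (PGK1), enolase (ENO1, ENO2) and pyruvate kinase (PKM) to lactate dehydrogenase (LDHA, LDHB). The largest of their changes were those of PFKM, the muscle-type phosphofructokinase (log2 fold change 0.38 ± 0.11, SE), and HK1 (0.33 ± 0.11, SE). PFKM mRNA was 58.6 and 74.4 CPM in WT against 86.3 and 87.1 CPM in XRN1-null cells. HK1 mRNA was 118 and 149 CPM in WT against 164 and 169 CPM in XRN1-null cells. In both genes the XRN1-null libraries were the higher ones, and the WT libraries differed from each other by more than the XRN1-null libraries did. GAPDH, the most abundant member and a common reference gene, had 2528 and 2804 CPM in WT against 2364 and 2353 CPM in XRN1-null cells, a log2 fold change of -0.18 ± 0.07 (SE) that did not pass (edgeR FDR = 0.0439).

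None of the 5 pyruvate dehydrogenase genes passed in mRNA or RPF with edgeR or DESeq2, and at an unadjusted p below 0.05 edgeR listed 0 in mRNA and 1 in RPF, where 69.9% and 33% of all genes met this limit. They encode the decarboxylase (PDHA1, PDHB), the acetyltransferase core (DLAT), the dihydrolipoyl dehydrogenase (DLD) and the protein that binds it to the core (PDHX). Their mRNA log2 fold changes ran from -0.11 (DLAT) to 0.12 (PDHA1), and those of the footprints from -0.02 (PDHX) to 0.33 (PDHB). PDHB footprints were 222 and 225 CPM in WT against 277 and 286 CPM in XRN1-null cells. The 2 groups did not overlap, yet the change did not pass (0.33 ± 0.13, SE, edgeR FDR = 0.108). PDHB footprints were called higher without WT Ribo-Seq replicate 1 and also without replicate 2. Without replicate 2 those of PDHA1, DLAT and DLD were called higher as well, where 12.7% of all genes were. In mRNA, DLAT and DLD were called lower without WT RNA-Seq replicate 1 and PDHA1 higher without WT RNA-Seq replicate 2.

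In the TCA cycle the mRNA of 1 of 12 genes rose and that of 1 fell (8.33% each), where 22.9% of all genes were called higher and 23.2% lower. DLST encodes the succinyltransferase core of the 2-oxoglutarate dehydrogenase complex, which turns 2-oxoglutarate into succinyl-CoA, and lies at chr14:75348594-75370446 (plus strand). Its mRNA was 93.4 and 108 CPM in WT against 203 and 201 CPM in XRN1-null cells. This was the largest rise among the members, with a log2 fold change of 1.00 ± 0.08 (SE), 2.00-fold (edgeR FDR = 4.9e-05), and it was called under all 9 alternatives. DLST footprints were 78.1 and 86.4 CPM in WT against 110 and 108 CPM in XRN1-null cells, higher in each XRN1-null library but by less than the mRNA (0.40 ± 0.14, SE), and did not pass (edgeR FDR = 0.0671). The translational efficiency (TE, the ratio of RPF to mRNA, tested as the assay by genotype interaction in all 8 libraries) thus had a log2 fold change of -0.60 ± 0.15 (SE), which did not pass (edgeR FDR = 0.032, with a range of 0.00371 to 0.139 over the alternatives).

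The partners of DLST in the same complex did not pass in mRNA. OGDH, its 2-oxoglutarate decarboxylase, had 77.8 and 95.5 CPM of mRNA in WT against 88.7 and 87.3 CPM in XRN1-null cells. DLD, the dehydrogenase shared with the pyruvate complex, had 125 and 159 CPM in WT against 132 and 137 CPM in XRN1-null cells. In both, the XRN1-null values lay between the WT values. Per kb of the deposited gene width, the mRNA level of DLST went from 28.3 ± 2.99 to 56.7 ± 0.46 CPM (mean ± SD, n = 2), while that of OGDH was 17.9 ± 2.58 and 18.2 ± 0.21 CPM and that of DLD 39.3 ± 6.75 and 37.3 ± 0.92 CPM. The mean of DLST was thus below that of DLD in WT and above it in XRN1-null cells on this scale.

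IDH2 encodes the mitochondrial isocitrate dehydrogenase that makes NADPH, at chr15:90626277-90645709 (minus strand). Its mRNA was 82.1 and 83.0 CPM in WT against 60.0 and 62.8 CPM in XRN1-null cells, 2 tight pairs that did not overlap. The log2 fold change was -0.43 ± 0.06 (SE, edgeR FDR = 0.000733). Without either XRN1-null library the call was lost (edgeR FDR = 0.0183 and 0.00807, with a range of 2.03e-07 to 0.0183 over the alternatives). Footprints of IDH2 were 73.4 and 66.6 CPM in WT against 57.6 and 57.7 CPM in XRN1-null cells and did not pass (-0.27 ± 0.14, SE, edgeR FDR = 0.206).

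The other 10 TCA genes encode citrate synthase (CS), the NAD-dependent isocitrate dehydrogenase (IDH3A, IDH3B, IDH3G), OGDH, the subunits of succinyl-CoA ligase (SUCLG1, SUCLA2, SUCLG2), fumarase (FH) and mitochondrial malate dehydrogenase (MDH2). The largest of their mRNA changes were close to the threshold on both sides of 0. MDH2 had 369 and 405 CPM in WT against 319 and 320 CPM in XRN1-null cells (-0.28 ± 0.07, SE, edgeR FDR = 0.00823). SUCLA2, the ATP-forming beta subunit of the ligase, had 61.9 and 68.1 CPM in WT against 79.7 and 77.7 CPM in XRN1-null cells (0.28 ± 0.07, SE, edgeR FDR = 0.00978). In each gene the 2 groups did not overlap, and both genes were called by DESeq2 but not by edgeR with TMM factors and no block. With library totals edgeR called SUCLA2, and with the replicate block it called SUCLA2, MDH2 and, lower, SUCLG2.

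PC, pyruvate carboxylase, refills the cycle by turning pyruvate into oxaloacetate. Its gene lies at chr11:66615888-66725857 (minus strand). PC mRNA was the lowest of the called members, with 14.9 and 20.1 CPM in WT against 29.4 and 28.9 CPM in XRN1-null cells. Both XRN1-null values were above both WT values, and the log2 fold change was 0.74 ± 0.13 (SE), 1.67-fold (edgeR FDR = 0.00172). Footprints of PC were 13.0 and 18.1 CPM in WT against 19.6 and 25.9 CPM in XRN1-null cells and did not pass (0.46 ± 0.22, SE, edgeR FDR = 0.173). The gene LRFN4 lies on the opposite strand within PC, and its mRNA differed the other way, with 55.7 and 54.6 CPM in WT against 30.5 and 32.4 CPM in XRN1-null cells. The cytosolic enzymes IDH1 and MDH1, grouped with PC, did not pass in mRNA (log2 fold changes of -0.03 and 0.09).

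In the pentose phosphate pathway, 2 of 6 mRNAs fell (33.3%, where 23.2% of all genes were called lower). Neither edgeR nor DESeq2 called the other 4, which also missed an unadjusted p of 0.05. PGLS encodes 6-phosphogluconolactonase, the enzyme of the second step of the oxidative branch, and lies at chr19:17622445-17632097 (plus strand). Its mRNA was 58.8 and 58.1 CPM in WT against 34.5 and 32.9 CPM in XRN1-null cells. The replicates agreed closely and the groups stood apart, with a log2 fold change of -0.79 ± 0.06 (SE), 1.73-fold lower in XRN1-null cells (edgeR FDR = 4.78e-05). Its footprints were 55.2 and 50.8 CPM in WT against 29.5 and 24.0 CPM in XRN1-null cells. PGLS was the 1 member that edgeR called in RPF, with a log2 fold change of -0.96 ± 0.16 (SE), 1.95-fold lower (edgeR FDR = 0.00455), where 1.14% of all genes were called lower and 0.633% higher in RPF. This call was lost with DESeq2 (adjusted p = 0.00827), with at least 10 counts required in every library (edgeR FDR = 0.00574) and without XRN1-null replicate 2 (edgeR FDR = 0.0336), and its adjusted p ranged from 1.7e-06 to 0.0336 over the alternatives, 6 of 9 of which called it. DESeq2 called ALDOA in place of PGLS. On the opposite strand the annotation has PGLS-DT and an uncharacterized gene that overlap PGLS.

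RPIA, ribose 5-phosphate isomerase, which makes ribose 5-phosphate in the non-oxidative branch, lies at chr2:88991191-89050446 (plus strand). Its mRNA was 73.1 and 72.7 CPM in WT against 48.7 and 54.9 CPM in XRN1-null cells. Again the groups did not overlap, and the log2 fold change was -0.49 ± 0.08 (SE, edgeR FDR = 0.000845). The call was lost without XRN1-null replicate 1 (edgeR FDR = 0.0138, with a range of 8.94e-08 to 0.0138 over the alternatives). RPIA footprints fell short of the threshold (-0.48 ± 0.18, SE, edgeR FDR = 0.0806) with a wide WT pair of 64.1 and 46.9 CPM against 37 and 40.3 CPM in XRN1-null cells. The other 4 genes, for 6-phosphogluconate dehydrogenase (PGD), the epimerase RPE, transketolase (TKT) and transaldolase (TALDO1), had mRNA log2 fold changes between -0.16 (RPE) and 0.24 (PGD), none of which passed.

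**Figure D2:**
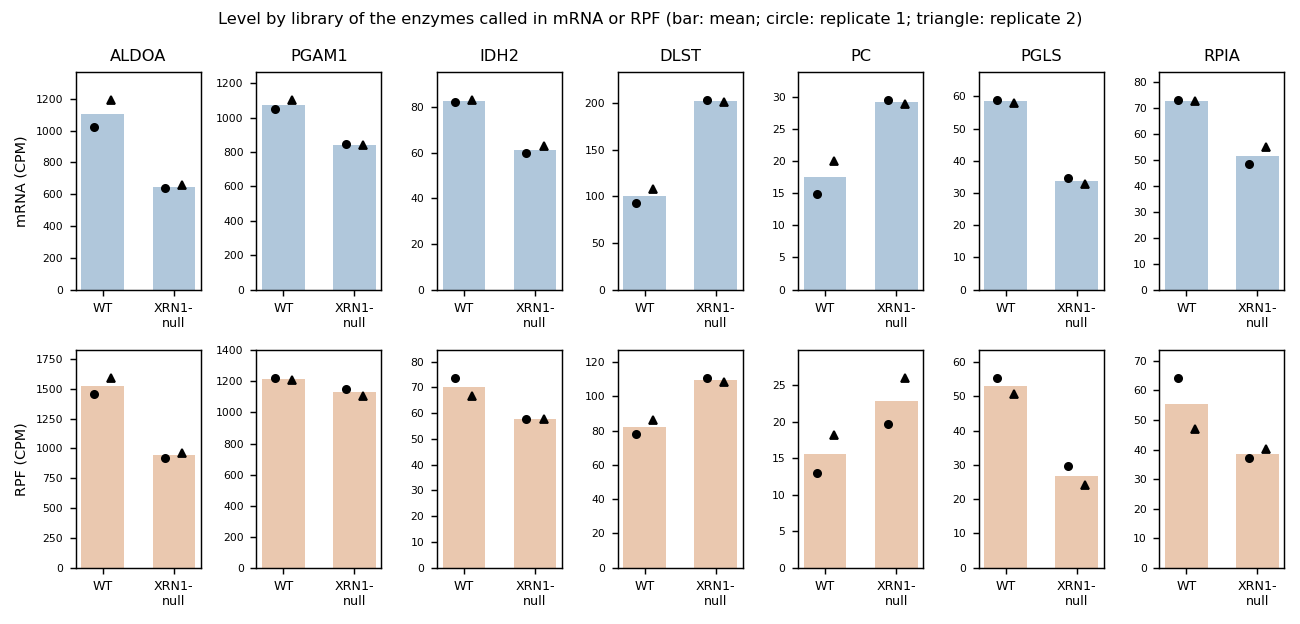
CPM by library for the 7 enzymes called in mRNA or RPF, with mRNA in the upper row and RPF in the lower row and each vertical axis starting at 0; bars are means of 2 libraries, circles are replicate 1 and triangles replicate 2. DLST and PC mRNA were higher in both XRN1-null libraries, the mRNAs of the other 5 enzymes were lower in both, and DLST footprints (110 and 108 CPM against 78.1 and 86.4 CPM) show a smaller step than DLST mRNA (203 and 201 CPM against 93.4 and 108 CPM).

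Footprints of the other 42 members did not pass with edgeR with TMM factors and no block. ALDOA footprints were called lower by DESeq2 and by edgeR with RLE factors, library totals or the replicate block, and none of these analyses called a member higher. At an unadjusted p below 0.05, edgeR listed 9 of 43 members in RPF (20.9%), where 33% of all genes met this limit. The median RPF log2 fold change was 0.14 over the members and -0.003 over all genes, with 28 of 43 members (65.1%) above 0 against 49.6% of all genes. Without WT Ribo-Seq replicate 1 the members' median was -0.0009, and without WT Ribo-Seq replicate 2 it was 0.30. The cytosolic MDH1 (298 and 377 CPM in WT against 431 and 466 CPM in XRN1-null) and the phosphofructokinase PFKM (60.9 and 95.3 CPM in WT against 103 and 124 CPM in XRN1-null) were at the upper end, and neither passed (edgeR FDR = 0.0822 and 0.0971).

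No member was called in TE by edgeR without a block or by DESeq2, where edgeR called 1.78% of all genes lower and 0.0495% higher. With a culture block, which treats the RNA-Seq and Ribo-Seq libraries that share a genotype and a number as 1 culture, edgeR called DLST lower (FDR = 0.00371). At an unadjusted p below 0.05, edgeR listed 4 of 43 members, where 23.3% of all genes met this limit, and DESeq2 listed 5. The 4 were DLST and ALDOC with lower TE (log2 fold changes of -0.60 and -0.58) and IDH3B and PDHB with higher TE (0.32 and 0.29). ALDOC, the brain-type aldolase, is a low transcript, with 9.74 and 12.1 CPM of mRNA in WT against 12.8 and 12.2 CPM in XRN1-null cells. Its footprints were 31.8 and 34.0 CPM in WT against 26.6 and 24.3 CPM in XRN1-null cells, so the 2 measures moved in opposite directions without either passing. The TE log2 fold change was above 0 in 32 of 43 members (74.4%) and in 51% of all genes, and its median was 0.12 over the members and 0.01 over all genes. Without WT RNA-Seq replicate 2 the members' median was 0.0019, and without WT Ribo-Seq replicate 2 it was 0.25.

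The WT replicates differed from each other in these genes. In mRNA, 39 of 43 members (90.7%) were higher in WT replicate 2 than in WT replicate 1, where this held for 49.9% of all genes. The median log2 difference, computed after adding 0.5 CPM, was 0.21 over the members and 0.28 over the glycolytic genes, all 17 of which were higher in replicate 2. Regardless of sign, the median difference was 0.21 over the members and 0.11 over all genes. PGK1 mRNA, for example, was 338 and 460 CPM in the WT pair against 386 and 380 CPM in the XRN1-null pair. PKM mRNA was 882 and 1212 CPM in WT against 996 and 1027 CPM in XRN1-null cells. In both genes the XRN1-null pair lay between the WT pair.

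Footprints showed the same order of the WT libraries in 32 of 43 members (74.4%, against 49.6% of all genes), with 15 of the 17 glycolytic genes higher in replicate 2. The XRN1-null replicates were closer, with a median log2 difference of 0.01 in mRNA and 0.04 in RPF over the members. The WT replicates lay further apart than the 2 genotype means in 28 of 43 members in mRNA (65.1%, against 19.6% of all genes) and in 24 of 43 in RPF (55.8%, against 43% of all genes). Glycolytic genes took 1.12 and 1.29% of all mRNA counts in WT against 1.10 and 1.11% in XRN1-null libraries. They took 1.51 and 1.82% of all footprint counts in WT against 1.69 and 1.72% in XRN1-null libraries.

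The outcome for the set followed which WT library was kept. Without WT RNA-Seq replicate 1, 5 members were called higher and 19 lower in mRNA (11.6 and 44.2%), where 31.6% of all genes were called higher and 30.8% lower. Without WT RNA-Seq replicate 2, 15 were called higher and 10 lower (34.9 and 23.3%), where 33.7 and 33.5% of all genes were. PGK1 and PKM were called lower without WT replicate 1 and higher without WT replicate 2, with log2 fold changes from -0.24 to 0.18 for PGK1 and from -0.24 to 0.20 for PKM. Without XRN1-null RNA-Seq replicate 1 or 2, 2 members were called higher in each case (4.65%) and 2 or 3 lower (4.65 and 6.98%), where 16.2 and 16.3% of all genes were called higher and 11 and 10.9% lower. Without WT Ribo-Seq replicate 2, 20 members were called higher in RPF and 3 lower (46.5 and 6.98%), where 12.7 and 10.8% of all genes were. Without WT Ribo-Seq replicate 1, 1 was called higher and 2 lower (2.33 and 4.65%), where 5.82 and 7% of all genes were. In these fits the lone WT library was taken to vary like the XRN1-null pair, which was the closer pair. DLST, PC, ALDOA and PGLS kept their mRNA call in each fit that left out a library. What set the WT replicates apart was not tested.

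**Figure D3:**
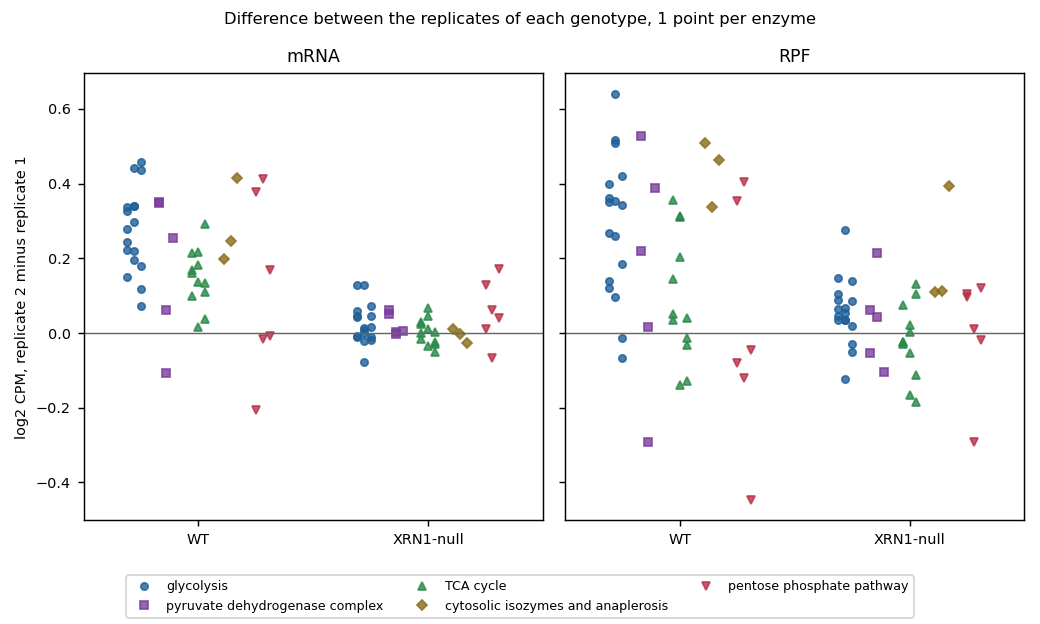
Log2 CPM of replicate 2 minus that of replicate 1 (vertical axis, after adding 0.5 CPM), for WT and XRN1-null cells in mRNA (left) and RPF (right), with 1 point per enzyme and symbols by pathway. In WT mRNA 39 of 43 points lie above 0, including all 17 of glycolysis, whereas the XRN1-null mRNA points gather around 0 with a median of 0.01.

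Shares within isozyme families compare genes inside a library and so do not depend on its scaling. They were computed from CPM per kb, of the deposited width for mRNA and of the annotated coding sequence for RPF. With 2 libraries against 2 the smallest p of a two-sided exact permutation test is 0.333, so these shares are a description. HK1 took 70.7 and 70.7% of hexokinase mRNA (HK1 and HK2) in WT against 78.7 and 77.6% in XRN1-null cells. The HK1 share of footprints was 64.8 and 64.9% in WT against 71.3 and 72.3% in XRN1-null cells. The WT replicates thus had nearly equal hexokinase shares, although both genes were higher in WT replicate 2.

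Succinyl-CoA ligase pairs its alpha subunit with a beta subunit that forms ATP (SUCLA2) or GTP (SUCLG2). SUCLA2 took 59.3 and 58.7% of the beta subunit mRNA in WT against 68.2 and 67.2% in XRN1-null cells. In footprints its share was 48.1 and 52.6% in WT against 62.9 and 62.5% in XRN1-null cells. In both measures the ATP-forming subunit had the larger share in the XRN1-null pair, with no overlap with the WT pair.

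The enzymes that occur in both cytosol and mitochondria had a larger cytosolic share in XRN1-null cells. MDH1 took 37.1 and 38.9% of malate dehydrogenase mRNA (MDH1 and MDH2) in WT against 44.4 and 44.3% in XRN1-null cells, and 35.4 and 41.5% against 48.1 and 47.8% of its footprints. IDH1 took 36.5 and 39.5% of NADP isocitrate dehydrogenase mRNA (IDH1 and IDH2) in WT against 45.3 and 44.3% in XRN1-null cells. Its share of footprints was 56.1 and 66.7% in WT against 70.4 and 71.9% in XRN1-null cells. In neither family was the cytosolic gene called in mRNA, and of the mitochondrial genes IDH2 fell while MDH2 narrowly missed the threshold with edgeR and was called lower by DESeq2.

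Families with 1 dominant gene kept it. ALDOA held 98.2 and 98.1% of aldolase mRNA in WT against 96.2 and 96.5% in XRN1-null cells, which left ALDOC with 1.83 and 1.94% and then 3.78 and 3.48%. ENO1 held 97.1 to 97.9% of the mRNA of ENO1 and ENO2 over all libraries, and ENO2, the neuronal isozyme, rose in share from 2.26 and 2.07% to 2.87 and 2.78%. ENO3 and LDHC, which are not members, were left out of these shares. The lactate dehydrogenase genes LDHA and LDHB are of like level. LDHB, the heart-type isozyme, took 64.4 and 64.0% of their mRNA in WT against 65.7 and 65.9% in XRN1-null cells.

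Phosphofructokinase and the NAD-dependent isocitrate dehydrogenase have 3 genes each. The liver-type PFKL took 46.1 and 43.9% of phosphofructokinase mRNA in WT against 40.8 and 42.1% in XRN1-null cells, and PFKM 17.2 and 17.1% and then 20.1 and 19.2%. In footprints PFKP was the largest, at 44.4 to 47.7% over all libraries. IDH3A, the catalytic subunit, went from 37.2 and 35.6% to 33.9 and 32.8% of the mRNA of the 3 subunits and from 41.5 and 36.9% to 32.5 and 30.8% of their footprints.

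**Figure D4:**
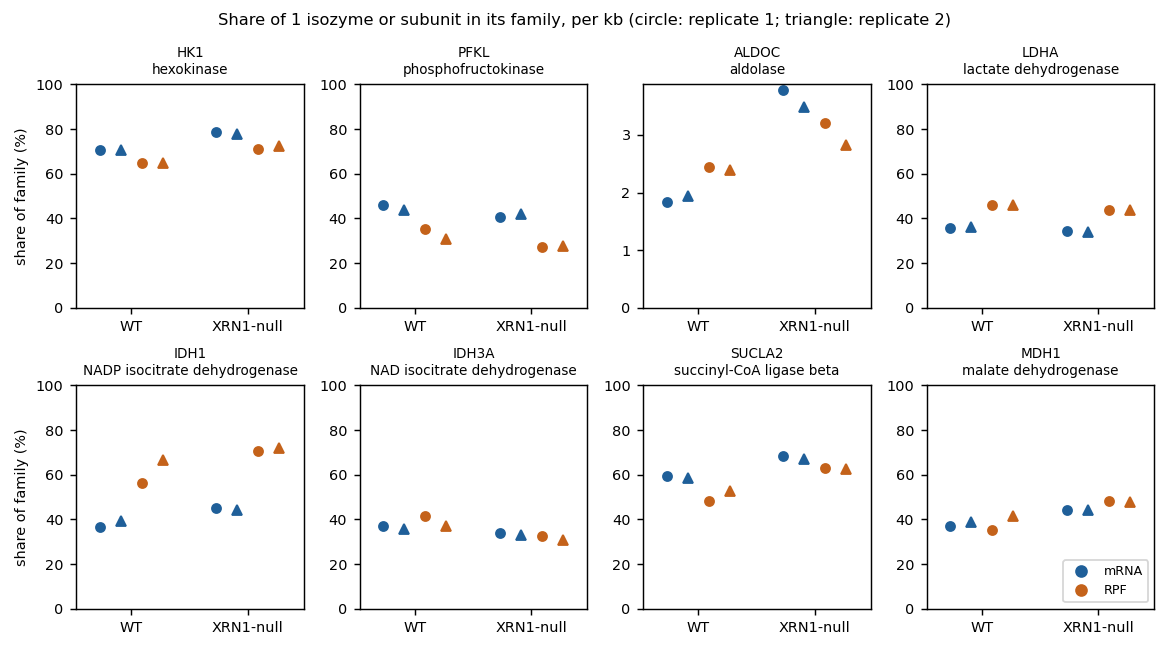
Share (%) of 1 gene in its isozyme or subunit family, from CPM per kb, for each library of WT and XRN1-null cells, with mRNA in blue and RPF in orange, circles for replicate 1 and triangles for replicate 2; the vertical axis runs from 0 to 100% except for ALDOC. HK1 went from 70.7% in both WT mRNA libraries to 78.7 and 77.6%, and SUCLA2 and MDH1 shares were likewise higher in both XRN1-null libraries, while LDHA stayed at 34.1 to 36.0% of the mRNA of LDHA and LDHB.

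Footprint density relative to mRNA density was taken as a rough measure of how densely ribosomes occupied these mRNAs. The ratio of RPF CPM per kb of coding sequence to mRNA CPM per kb of deposited width was set to 1 for the median of 9062 genes with both values in each library. In WT cells 36 of the 43 members were above the median gene, and in XRN1-null cells 37 were. The median member ratio was 1.29 in WT and 1.41 in XRN1-null cells. The lengths come from different sources, and the rank of a gene also depends on its deposited width over its coding length. RPE (3505 and 684 nt) stood at percentile 88.1 in WT, with mean footprints of 80.6 CPM against 97.6 CPM of mRNA. TALDO1 (1243 and 1011 nt) stood at percentile 64.4, with 304 CPM against 163 CPM. Ranks between genes thus partly reflect these lengths.

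ALDOC and LDHA had the highest ratios in WT cells, at 2.55 ± 0.27 and 2.54 ± 0.13 (mean ± SD, n = 2), and stood at percentiles 89.8 and 89.7 of all genes. PC (0.59 ± 0.02), PFKL (0.61 ± 0.04), IDH2 (0.64 ± 0.05) and PGLS (0.67 ± 0.03) had the lowest. Neighbours among these genes differed by less than the larger SD of the pair. In glycolysis 15 of 17 genes were above the median gene in WT, and the median of the group was 1.68. DLST went from above the median gene to below it, from 1.22 and 1.16 in the WT libraries to 0.80 and 0.79 in the XRN1-null libraries.

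**Figure D5:**
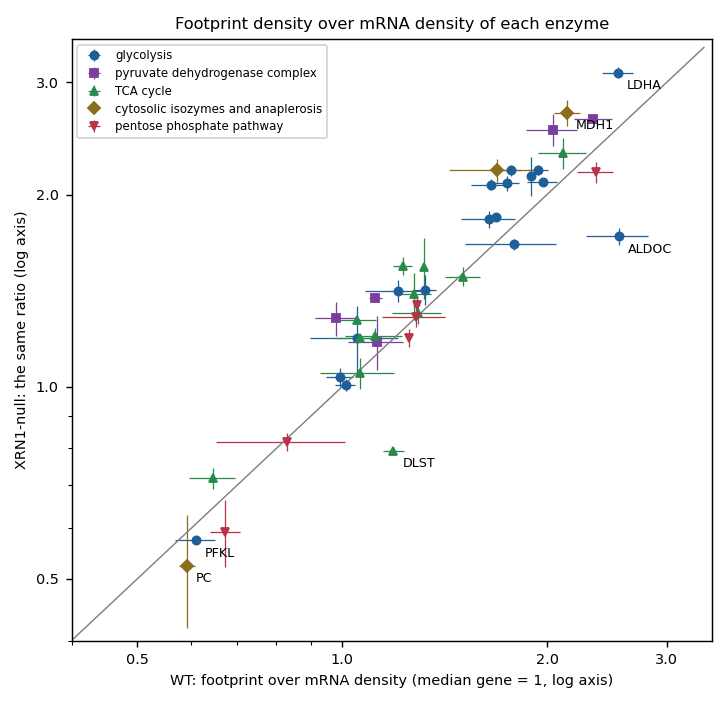
Footprint density over mRNA density of the 43 enzymes in WT (horizontal) and XRN1-null cells (vertical), both on log axes and relative to the median gene of the table (1), as mean ± SD of 2 libraries, with symbols by pathway and a line of equal values. DLST lies below the line (1.19 in WT, 0.79 in XRN1-null) and so does ALDOC (2.55 and 1.72), while LDHA and MDH1 lie above it.

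Other genes of these pathways were read from a list of 51 symbols, 33 of which were in the table. In mRNA, 5 of them were called higher (15.2% of 33, against 22.9% of all genes). The number called lower was 12 (36.4%, against 23.2% of all genes). In either direction the share was 51.5%, against 46.1% of all genes. With library totals as the scaling 6 were called lower, where 19% of all genes were. Without XRN1-null RNA-Seq replicate 1 or 2, 5 were called lower in each case, where 11 and 10.9% of all genes were. The genes called higher included the glucose transporter SLC2A3, the muscle enolase ENO3, the phosphofructokinase regulator PFKFB4 and the pyruvate dehydrogenase kinase PDK1, which inhibits that complex. The genes called lower were the glucose transporter SLC2A1, the lactate transporter SLC16A1, the ADP-dependent glucokinase ADPGK, the regulators PFKFB3, PDK2 and PDP2, the reticular enzyme H6PD, the succinate dehydrogenase subunits SDHB, SDHC and SDHD, the glucose 6-phosphatase G6PC3 and the mitochondrial aspartate aminotransferase GOT2.

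The largest fall in the list was that of H6PD, an enzyme of the endoplasmic reticulum that makes NADPH there. Its mRNA was 32.0 and 28.5 CPM in WT against 13.9 and 11.4 CPM in XRN1-null cells, and both XRN1-null values lay below both WT values (-1.26 ± 0.12, SE, edgeR FDR = 8.13e-05). Its footprints were 33.3 and 32.6 CPM in WT against 25.3 and 28.7 CPM in XRN1-null cells and did not pass (edgeR FDR = 0.237).

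Regulators of the same step had calls in both directions. PFKFB4 mRNA was 11.2 and 11.5 CPM in WT against 27.3 and 25.1 CPM in XRN1-null cells (1.21 ± 0.09, SE, edgeR FDR = 3.12e-05), while PFKFB3 fell by 0.32 on the log2 scale (edgeR FDR = 0.00378). PDK1 mRNA was 28.3 and 26.9 CPM in WT against 54.1 and 48.4 CPM in XRN1-null cells (0.89 ± 0.08, SE, edgeR FDR = 7.21e-05), while PDK2 fell by 0.37 (edgeR FDR = 0.00238). The PFKFB3 and PDK2 calls were lost with library totals and without either XRN1-null RNA-Seq library, and that of PFKFB3 also with at least 10 counts in every library, whereas those of PFKFB4 and PDK1 remained under these alternatives. Footprints of PFKFB4 and PDK1 did not pass (log2 fold changes of 0.21 and 0.17), nor did their TE (edgeR FDR = 0.0444 and 0.0593).

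Succinate dehydrogenase links the TCA cycle to the respiratory chain. SDHB, SDHC and SDHD fell by 0.32, 0.34 and 0.57 on the log2 scale in mRNA, whereas SDHA, the catalytic subunit, had a log2 fold change of 0.23 ± 0.14 (SE) that did not pass. The SDHB call was lost with library totals, and those of SDHB and SDHC without either XRN1-null RNA-Seq library, whereas that of SDHD remained under these alternatives. None of the 4 passed in RPF. For SDHA the annotation holds 4 symbols of the form of a pseudogene name (SDHA, a P and any digits), 3 of them among the genes of the table. SDHB, SDHC and SDHD have such symbols too, none of them in the table. The part of these copies in the values was not tested.

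In RPF, the genes of the list that edgeR called lower were PCK2, the mitochondrial phosphoenolpyruvate carboxykinase, and G6PC3, the widely expressed glucose 6-phosphatase, and DESeq2 called G6PC3 but not PCK2. The edgeR calls were 2 of 33 (6.06%), where 1.14% of all genes were called lower in RPF. Neither tool called a gene of the list higher in RPF. At an unadjusted p below 0.05, edgeR listed 10 of 33 in either direction (30.3%), where 33% of all genes met this limit. PCK2 footprints were 44.3 and 47.5 CPM in WT against 21.4 and 24.0 CPM in XRN1-null cells (-1.03 ± 0.16, SE, edgeR FDR = 0.00346). G6PC3 footprints were 138 and 113 CPM in WT against 59.1 and 62.7 CPM in XRN1-null cells (-1.03 ± 0.15, SE, edgeR FDR = 0.00291). PCK2 mRNA did not pass (edgeR FDR = 0.0554), and G6PC3 mRNA fell by 0.68. These calls depended on the libraries: with 1 library left out, between 0 and 6 genes of the list were called lower in RPF. There were 6 without WT replicate 1, where 7% of all genes were called lower, and 0 without XRN1-null replicate 1, where 0.713% were.

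ENO3 was the 1 gene of the list that edgeR called in TE without a culture block, with a log2 fold change of -2.84 ± 0.38 (SE, edgeR FDR = 0.00108). It is a low transcript, with 1.64 and 1.28 CPM of mRNA in WT against 4.65 and 5.37 CPM in XRN1-null cells, and 7.29 and 8.50 CPM of footprints in WT against 3.72 and 4.06 CPM in XRN1-null cells. Its gene overlaps PFN1 on the opposite strand, and the edgeR call was lost without WT Ribo-Seq replicate 2 and without either XRN1-null Ribo-Seq library. DESeq2 called ENO3 too, and also called H6PD higher in TE, as did edgeR with the culture block.

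The annotation adds features that the choice of genes did not use. At least 1 transcript annotated as a target of nonsense-mediated decay, a quality control pathway that hands mRNA to XRN1, was present for 28 of 43 members (65.1%) and for 49.1% of the 9552 genes of the table matched to GENCODE by symbol. DLST had 6 such transcripts of 16 and PC 2 of 19. Of the members that fell, IDH2 had 1 of 4, PGLS 1 of 6, and ALDOA, PGAM1 and RPIA none. The counts are per gene and so do not tell these transcripts from the others.

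Near copies can limit the reading of some members. For 21 of the 43 members the annotation holds symbols made of the member's symbol, a P and any digits, the form of a pseudogene name. There were 127 in all, with 65 for GAPDH and 13 for PGAM1. They were matched by name alone and their gene type was not checked, so some, such as the 2 of PC, can be unrelated genes. None of these 127 was among the genes of the table, and how reads that match a gene and its copy were counted is not given in the sources used here. IDH2 and PGLS have no such symbol. The part of the copies in the values was not tested.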

How the data were processed

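RNA-Seq and Ribo-Seq of WT and XRN1-null HEK293T cells gave 8 libraries, grouped by their labels. Per the study's methods, the authors filtered out reads of ribosomal RNA (Bowtie2), mapped on hg19 with Tophat2, selected footprint lengths by periodicity, counted reads per gene with QuasR and kept genes above an FPKM limit; they deposited raw counts and a width for 10105 genes. No sample column was left unused. Deposited tables of the authors' own edgeR and RiboDiff comparisons (fold changes, p-values and TE) were not used.

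From the counts, edgeR 4.0.16 (R 4.3.3) was run with TMM factors within each assay, genotype as the only term and glmQLFTest, and for TE the interaction of assay and genotype over 8 libraries. P-values were adjusted (Benjamini-Hochberg) over all genes. With 2 biological replicates per group precision is limited. Standard errors are the log2 fold change over the square root of F. Alternatives were RLE factors, library totals, at least 10 counts in every library, DESeq2 1.42.0, blocks, an FDR of 0.05 and leaving out each library. Test functions were tested on simulated data. Gene positions, coding lengths and start codons came from GENCODE release 44 mapped to GRCh37, the chromosomes of hg19. Protein sequences were not used here.

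The members and lists were chosen with earlier results of these data known. Members called in mRNA, RPF or TE were named with their values, as were isozyme families, the largest changes of each group and called genes of the second list, of which 1 is not reported here; LRFN4, OGDH, DLD, GAPDH, PGK1, PKM and SDHA were named after their values were seen.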

Additional observations from a re-analysis of the deposited data

How the results depend on the processing

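With 2 libraries per group, counts of called members depend on single libraries as well as on the method. With DESeq2, the replicate block and an FDR of 0.05, 5, 6 and 6 members were called higher in mRNA (11.6, 14 and 14%), where 26.6, 28.3 and 32.8% of all genes were, and at an FDR of 0.05 10 were called lower (23.3%, against 34.2% of all genes); leaving out 1 library gave 2 to 15 higher and 2 to 19 lower. In RPF, members called lower numbered 2 with RLE factors, library totals, the replicate block or an FDR of 0.05 (4.65%, where 1.23, 1.62, 6.58 and 8.38% of all genes were) and 0 with at least 10 counts in every library (0.952% of all genes), and with 1 library left out 0 to 3 were lower and 0 to 20 higher. In TE, 1 member (DLST) was called lower with the culture block (genotype and replicate number) and at an FDR of 0.05. With 1 library left out, the median member log2 fold change ran from -0.088 to 0.075 in mRNA and from 0.0019 to 0.25 in TE. Of the related genes, library totals called 6 lower in mRNA, DESeq2 called 1 lower in RPF, 1 was higher in TE with DESeq2, the culture block or an FDR of 0.05, and 3 were lower in TE at an FDR of 0.05. Leaving out 1 library gave 3 to 9 higher and 5 to 18 lower in mRNA, 0 to 1 higher and 0 to 6 lower in RPF, and 0 to 1 lower in TE. None of the 7 called enzymes was called in opposite directions by 2 alternatives. The cause of these changes was not tested. DLST, PC, ALDOA and PGLS kept their mRNA call under all 9 alternatives. In a group left with 1 library, that library is assumed to vary like the other group's. Whether libraries with the same number share a culture is not given in the labels. Their deviations from the group means correlated at 0.19 in mRNA and 0.08 in RPF over 2 pairs, and the RNA-Seq and Ribo-Seq libraries of one genotype and number at 0.36 in WT and 0.03 in XRN1-null cells. The replicate block called 5663 genes in mRNA against 4657 without it, and 1281 against 179 in RPF.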
